A study of Mus musculus with 4 samples.

Results

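The 9 genes described here are the p53 gene Trp53, its inhibitor Mdm2 and 7 genes that are known as p53 targets or stress genes, namely Cdkn1a, Ccng1, Rrm2b, Ddit4, Sesn2, Bbc3 and Pmaip1. They were taken by symbol from a given list, 9 among the 32285 genes of the count tables. Rrm2b and Ddit4 were chosen by their transcript levels, with the genotype difference in late spermatogonia already known. Transcripts were counted in single cells of mouse testes at postnatal day 15, as droplet-based 3′ libraries, one library per pup from 1 testis. The groups were 2 wild-type pups and 2 Meioc-null pups, which lacked a functional Meioc through the Meioc tm1.1Dpc allele. All 4 pups were C57BL/6N, and all, the wild-type pups included, also carried 1 Hspa2 tm1Dix allele and 2 ROSA26 tdTomato alleles whose stop cassette was intact, since no Cre was present. Each wild-type pup and the Meioc-null pup with the same replicate number were littermates processed as 1 batch. Interstitial tissue was discarded during dissociation, so Leydig cells and interstitial fibroblasts were those that remained. The comparison asks which transcripts change when germ cells that lack Meioc reach the mitosis-to-meiosis transition.

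The protein p53 is a transcription factor that is kept low by MDM2, a ubiquitin ligase which marks it for degradation and whose own gene is a p53 target. Stabilised p53 acts on genes that halt the cell cycle, supply deoxynucleotides for DNA repair, restrain the growth kinase mTOR or start apoptosis, and several of these genes also answer to other inputs, such as amino acid shortage, hypoxia, glucocorticoids or loss of growth factors. In the testis, spermatogonia divide by mitosis, replicate their DNA once more at the preleptotene stage and then make programmed DNA double-strand breaks in meiotic prophase. MEIOC is an RNA-associated protein of germ cells required for a lasting entry into that prophase.

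After filters on detected genes, mitochondrial share and doublets, the wild-type libraries kept 5644 and 7505 cells and the Meioc-null libraries 6554 and 6522 cells, with a median of 11698.5 to 14446 UMIs (counted molecules) per cell. Wild-type germ cells formed 11 clusters and Meioc-null germ cells were placed on them without use of the 9 genes. Each Meioc-null germ cell was given a wild-type cluster, so a state found only in Meioc-null cells would lie within these clusters. The study reported such a state, a cluster of Meioc-null spermatocytes mainly in G2/M phase, which was not set apart here. By their markers, cluster 1 was undifferentiated and clusters 2 to 5 were differentiating spermatogonia, cluster 7 was preleptotene, clusters 9 and 10 were early spermatocytes, and cluster 11 was pachytene. Cluster 6 lay between differentiating and preleptotene markers, and cluster 8 between preleptotene and early spermatocyte markers. Cluster 11 held 262 and 305 wild-type cells and 0 Meioc-null cells, so it enters no comparison of genotypes. The study's own clustering did class some Meioc-null cells as pachytene, so the 0 belongs to the clusters and placing used here. Meioc itself had 640 and 685 CPM in wild type against 682 and 651 CPM in Meioc-null cluster 7. Its Meioc-null libraries lay below both wild-type libraries in clusters 3 to 5 and above both in clusters 8 to 10, most in cluster 9 at 504 and 498 against 788 and 818 CPM (log2 0.68, edgeR adjusted p = 0.00221). These 3′ counts still hold Meioc in both genotypes and do not check the labels. RNA free in the droplets was visible as 31.7 to 107 CPM of summed Sertoli markers in germ-cell clusters 1 to 10, against 7200 to 7684 CPM in Sertoli cells. Each pair of libraries shared 45 to 73 cell barcodes, at most 0.501% of the smaller library. All levels below are UMIs of the gene summed over the cells of a cluster in 1 library, per 1000000 UMIs of that sum (CPM), and such a sum does not separate more cells with a transcript from more transcript per cell.

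Promoter sequences are shown for Ccng1, Cdkn1a and Mdm2 because Ccng1 and Cdkn1a were the members whose promoter held a full p53 site and because Mdm2, which held a half-site, was lower rather than higher in Meioc-null spermatocytes. The window is 250 bases before to 50 bases after the annotated start (RefSeq, GRCm38.p6), and 7 of the 9 genes had at least 1 promoter in that table, with Rrm2b and Pmaip1 missing. The p53 site searched is its standard 20-base consensus of a pair of half-sites of 10 bases, on both strands. Up to 2 mismatches were allowed, but none at the C and G of each half-site core, and at most 1 base between the half-sites. A half-site on its own had to match in full. Capitals mark the full site or, in Mdm2, the half-site. Full sites were found in 224 of 32851 promoters, or 0.682%, and half-sites in 8.36%. The Ccng1 promoter lies at chr11:40755237-40755536 on the minus strand with its site from position -195, the first Cdkn1a promoter at chr17:29090729-29091028 on the plus strand with its site from position -51, each with 1 mismatch, and the Mdm2 promoter at chr10:117710709-117711008 on the minus strand with its half-site from position -186.
Ccng1: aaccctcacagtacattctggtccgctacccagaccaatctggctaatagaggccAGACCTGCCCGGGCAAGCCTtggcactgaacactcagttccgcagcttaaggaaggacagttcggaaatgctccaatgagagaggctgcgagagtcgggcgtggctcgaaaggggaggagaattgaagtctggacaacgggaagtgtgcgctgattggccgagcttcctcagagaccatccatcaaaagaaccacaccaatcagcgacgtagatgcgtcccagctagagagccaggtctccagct
Cdkn1a: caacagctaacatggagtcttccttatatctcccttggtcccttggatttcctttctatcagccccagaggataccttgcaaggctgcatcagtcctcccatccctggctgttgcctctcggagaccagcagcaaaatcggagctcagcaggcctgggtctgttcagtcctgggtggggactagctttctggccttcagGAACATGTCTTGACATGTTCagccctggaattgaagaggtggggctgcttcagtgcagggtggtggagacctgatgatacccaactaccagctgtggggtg
Mdm2: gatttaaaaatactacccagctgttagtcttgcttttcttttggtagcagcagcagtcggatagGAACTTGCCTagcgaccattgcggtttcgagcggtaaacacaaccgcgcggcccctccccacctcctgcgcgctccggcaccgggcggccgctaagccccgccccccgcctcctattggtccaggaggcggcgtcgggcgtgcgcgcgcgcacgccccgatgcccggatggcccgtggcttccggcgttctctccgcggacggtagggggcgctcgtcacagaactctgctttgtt
The Cdkn1a promoter also held a separate half-site, GGACTAGCTT, from position -73, in lower case in the line given for it. The Trp53 promoter held a half-site, GGACTTGCCC, from position -75. The letters CACGTG, bound by E-box factors, were in the promoters of Trp53 and Bbc3 and in 7.15% of all promoters. The letters TTTGGCGC and TTTCGCGC, which E2F factors bind, TGACGTCA, bound by CREB and ATF factors, and TTGCATCA, bound by ATF4, were in no member's window and in 0.514%, 0.323%, 1.79% and 0.895% of all promoters. The other Cdkn1a promoter, at chr17:29093519-29093818, held neither a full p53 site nor a half-site. Sites outside the windows were not searched. A match is a description of the letters only.

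Levels along wild-type spermatogenesis are a description, since the clusters come from the same cells, and they are given gene by gene. Trp53 (ENSMUSG00000059552, GRCm38 chr11:69580359-69591873, plus strand) was highest in wild-type Sertoli cells, at 107 and 101 CPM, and among germ cells in cluster 2, at 83.6 and 68.4 CPM. It was lower in each later germ-cell cluster up to cluster 8, with 38.7 and 35.3 CPM in cluster 6, 10.5 and 8.67 CPM in preleptotene cluster 7 and 4.01 and 3.06 CPM in cluster 8. It was at 13.6 and 14.4 CPM in cluster 9 and 21.4 and 26.6 CPM in pachytene cluster 11. The mean in Sertoli cells was 29.5 times that in cluster 8, and only 3 of the 14 neighbouring pairs in the order of levels had overlapping libraries, among them peritubular myoid cells and interstitial fibroblasts. Mdm2 (ENSMUSG00000020184, chr10:117688875-117710758, minus strand) went the other way. Its 2 wild-type libraries had 85.1 and 79.5 CPM in cluster 1 and 75.0 and 64.6 CPM in cluster 7, then 167 and 162 CPM in cluster 9, 194 and 199 CPM in cluster 10 and 172 and 183 CPM in cluster 11. These 3 spermatocyte clusters did not overlap with each other, while clusters 1, 5, 8, 7, 6, 4 and 2 followed in an unbroken run of overlapping neighbours. Somatic types had the lowest Mdm2, down to 38.7 and 24.3 CPM in interstitial fibroblasts. Across the 14 cell types with at least 50 cells, log2 levels of Trp53 and Mdm2 had a Pearson r of -0.61 in wild type 1 and -0.59 in wild type 2. These r values describe 14 points that share libraries and depth.

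The cell-cycle genes peaked within the spermatogonia. Cdkn1a, which encodes the CDK inhibitor p21 (ENSMUSG00000023067, chr17:29090976-29100727, plus strand), had 3.27 and 4.00 CPM in wild-type cluster 2, 33.5 and 34.1 CPM in cluster 5 and 6.19 and 5.61 CPM in cluster 6. It was lowest in cluster 9, at 2.46 and 3.04 CPM. Interstitial fibroblasts had the highest mean, 57.7 ± 41.2 CPM (SD, n = 2), but their libraries lay far apart at 86.8 and 28.6 CPM and overlapped with cluster 5, and 12 of the 14 neighbouring pairs overlapped. Ccng1 (ENSMUSG00000020326, chr11:40748552-40755311, minus strand) encodes cyclin G1, a cyclin that recruits a phosphatase to MDM2. It had 26.5 and 22.0 CPM in wild-type cluster 1, 135 and 138 CPM in cluster 4, 12.0 and 12.8 CPM in cluster 7 and 4.41 and 2.23 CPM in cluster 8. The mean in cluster 4 was 41.1 times that in cluster 8, with overlap in only 3 of the 14 neighbouring pairs. The spermatocyte clusters had low levels, with 3.76 and 3.64 CPM in cluster 11.

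Rrm2b (ENSMUSG00000022292, chr15:37923952-37961318, minus strand) encodes p53R2, the small subunit of ribonucleotide reductase that works outside S phase and in DNA repair. Its wild-type peak came later than that of the cell-cycle genes. It had 14.0 and 15.5 CPM in cluster 1, 22.0 and 23.3 CPM in cluster 6, 52.6 and 55.4 CPM in cluster 7 and 46.9 and 68.7 CPM in cluster 8. The peak clusters 7 and 8 overlapped. Later clusters had less, with 38.2 and 41.4 CPM in cluster 9, 8.17 and 10.2 CPM in cluster 10 and 1.54 and 2.48 CPM in cluster 11. The mean in cluster 8 was 28.8 times that in cluster 11. Somatic types lay between 20.3 and 27.5 CPM on average.

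The genes that restrain mTOR were led by Sertoli cells. Ddit4 (ENSMUSG00000020108, chr10:59949669-59951834, minus strand) encodes REDD1, an mTOR inhibitor also driven by hypoxia and glucocorticoids, and had 101 and 71.4 CPM in wild-type Sertoli cells. Among germ cells it stood high in undifferentiated cluster 1, at 55.4 and 41.9 CPM, and low in cluster 2, at 4.14 and 1.60 CPM. A smaller second peak followed in cluster 5, at 17.5 and 9.83 CPM, and cluster 6, at 14.7 and 7.90 CPM. Sesn2 (ENSMUSG00000028893, chr4:132492032-132510501, minus strand) encodes sestrin 2, a leucine sensor that holds back mTOR, and had 119 and 102 CPM in wild-type Sertoli cells. In germ cells it had 16.4 and 17.3 CPM in cluster 1, 6.06 and 4.36 CPM in cluster 6, 19.2 and 15.7 CPM in cluster 7, 28.8 and 24.5 CPM in cluster 8, and 8.01 and 6.66 CPM in cluster 9. For Sesn2, Sertoli cells and cluster 8 each stood apart from their neighbours in the order of levels, and 11 of the 14 neighbouring pairs overlapped for each of Ddit4 and Sesn2.

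The apoptosis genes peaked in different germ-cell clusters. Bbc3 (ENSMUSG00000002083, chr7:16308393-16318205, plus strand) encodes PUMA, a BH3-only protein that binds the anti-apoptotic BCL2 proteins. It had 1.70 and 1.49 CPM in wild-type cluster 1, 12.8 and 8.56 CPM in cluster 5 and 17.0 and 12.9 CPM in preleptotene cluster 7, and then only 1 and 4 UMIs in cluster 8 and 1 and 6 UMIs in cluster 9. Interstitial fibroblasts had the highest mean of Bbc3 over all cell types, with libraries at 19.1 and 11.7 CPM that overlapped with cluster 7. Pmaip1 (ENSMUSG00000024521, chr18:66458533-66465565, plus strand) encodes NOXA, a BH3-only protein that binds MCL1. It was high at both ends of the germ-cell series, with 36.2 and 24.4 CPM in cluster 1, 3.50 and 1.90 CPM in cluster 7, 35.6 and 28.8 CPM in cluster 10 and 21.0 and 21.3 CPM in cluster 11. Clusters 10 and 1 overlapped at the top of the order. In wild-type Leydig cells Pmaip1 had 0 UMIs in both libraries, which allows up to 4.94 and 3.01 CPM at 3 counts. Its profile was the most like that of Mdm2 among the members, with r of 0.82 in each wild-type library over the 14 cell types.

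**Figure D1:**
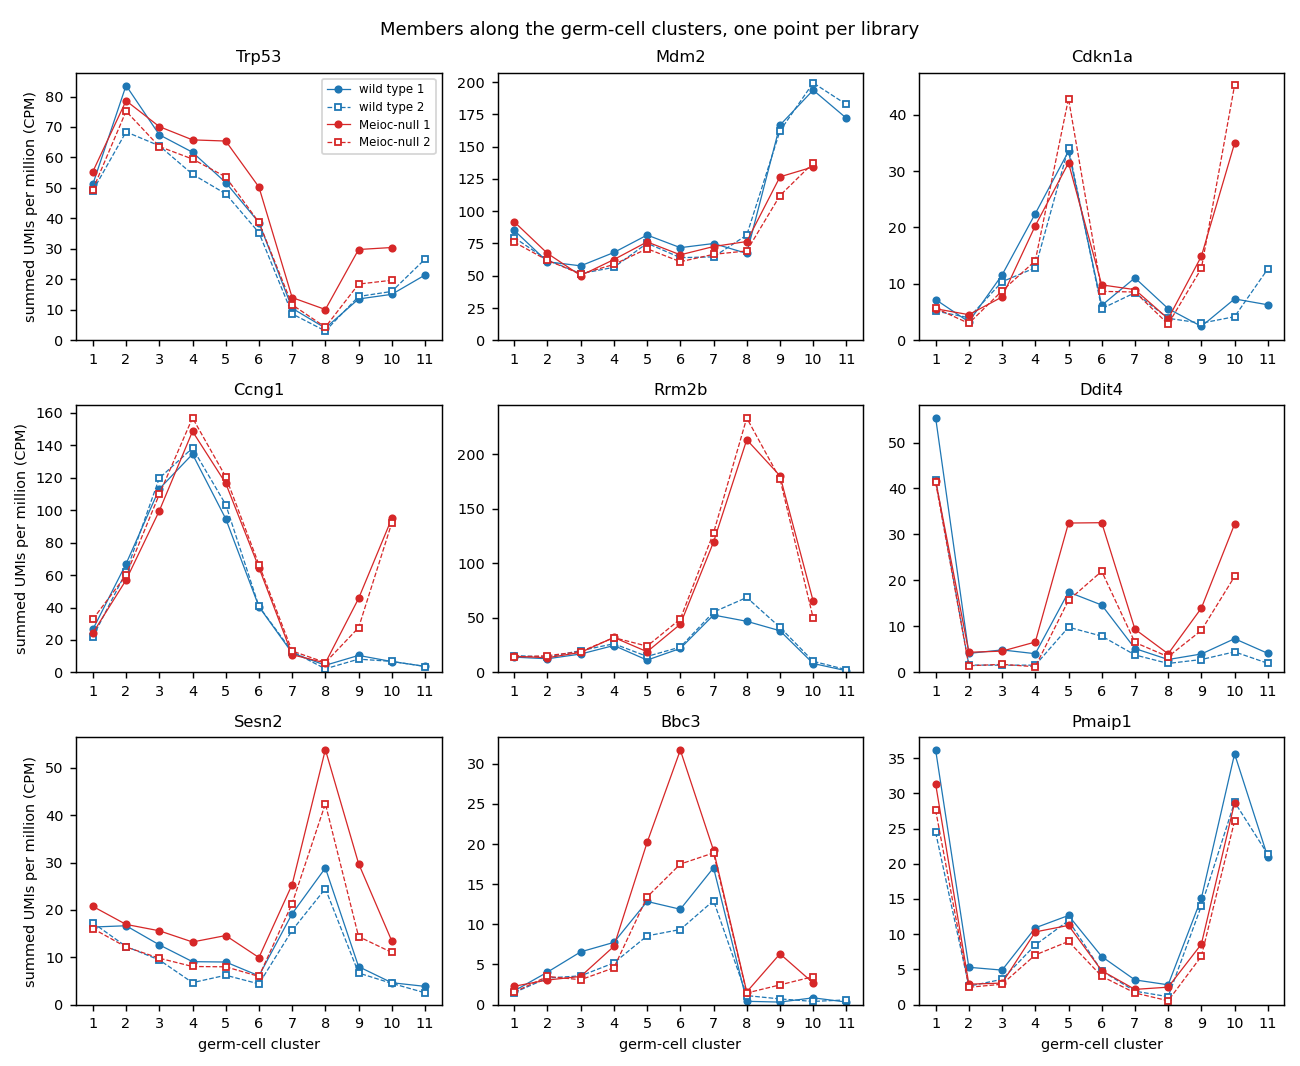
Level of each of the 9 genes (vertical axis, CPM) in germ-cell clusters 1 to 11 (horizontal axis), one point per library, with wild type in blue and Meioc-null in red, filled points and solid lines for batch 1 and open squares and dashed lines for batch 2. Wild-type Ccng1 peaks in cluster 4 and Rrm2b in clusters 7 and 8, and the red and blue lines of Ccng1, Cdkn1a, Rrm2b and Ddit4 part in clusters 9 and 10.

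Genes whose wild-type profile was most like that of each member were ranked by the lower of the r values of the 2 libraries, over the same 14 cell types and 12678 genes. For Trp53 they were Actb, Clta and Ccdc32 (r of at least 0.942) and for Mdm2 they were Edc4, Cenpc1 and Nol8 (at least 0.945). For Ccng1 they were Rfk, Mrps24 and Gga2 (at least 0.923), and for Rrm2b they were Susd6, Afmid and Ppp2r3a (at least 0.903). For Sesn2 they were Schip1, Gas2l1 and Rasl10a (at least 0.874), for Ddit4 Abcd2, Trim12a and Mgst3 (at least 0.884), for Bbc3 Decr1, Fzd4 and Zc3hav1 (at least 0.892) and for Pmaip1 G2e3, Brd8 and Cebpg (at least 0.859). Cdkn1a had the lowest likeness, with Tent5a, Dpagt1 and Gipc1 at 0.711, 0.695 and 0.688. These are descriptions over points that share libraries and depth.

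The genotypes were then compared within clusters 7 to 10, which hold the preleptotene cells and the early spermatocytes. By the test described next, Rrm2b was higher in Meioc-null cells in each of clusters 7 to 10 and Sesn2 in clusters 8 to 10. Ccng1, Cdkn1a and Ddit4 were higher in clusters 9 and 10, and Mdm2 was lower in both of these. Bbc3 and Trp53 were higher and Pmaip1 lower in cluster 9. Sums over 2 wild-type and 2 Meioc-null libraries were tested with edgeR over all genes of a cluster, and a gene passed where the Benjamini-Hochberg adjusted p was under 0.05 and the log2 difference exceeded 0.1. Differences are log2 Meioc-null over wild type. Only genes with at least 40 UMIs over the 4 libraries were tested, and Bbc3 in cluster 9 reached that number only through its Meioc-null libraries, so its test there is no independent support. Of 33 tests of members, 18 passed, 15 higher in Meioc-null and 3 higher in wild-type cells, against 37% of all gene and cluster pairs (19.6% higher in Meioc-null and 17.4% higher in wild-type cells). The differences were therefore read one gene at a time. Rrm2b and Ddit4 were listed with their difference in late spermatogonia known, so their tests are not independent of that choice. In cluster 7, 1 of 9 passed against 15.4% of all genes, in cluster 8, 2 of 7 against 36.1%, in cluster 9, 9 of 9 (8 without Bbc3) against 45.7%, and in cluster 10, 6 of 8 against 54.6%. Of all genes, those higher in Meioc-null cells made up 9.29%, 19.1%, 24.2% and 27.6% of clusters 7, 8, 9 and 10, those lower made up 6.07%, 17%, 21.4% and 27%, and the counts of other gene lists given further on stand beside these shares. Those counts too include genes that reached 40 UMIs only through 1 genotype. The lists were chosen with earlier results of these data known, so their counts and medians are a description and no independent support. The median difference of the tested members was 0.30, 0.72, 1.80 and 1.73 in clusters 7 to 10, and that of all genes was 0.01, 0.03, 0.02 and -0.00. The member medians include Rrm2b and Ddit4, and Bbc3 where it was tested, and the one in cluster 9 is the value of Ddit4 itself. Nothing is therefore read from these medians. All 18 had the same direction in both litters. The libraries of the genotypes did not overlap for 53.2%, 68.1%, 71.5% and 75.5% of all genes in clusters 7, 8, 9 and 10. A lack of overlap given below is therefore a description and is not read as a result. The p-values judge each difference against a spread between these 4 libraries that was estimated with help from the other genes of the cluster. With 2 pups per genotype, an exact permutation test of 1 gene could not go below 0.333. The clusters held 708 and 740 wild-type against 1614 and 1174 Meioc-null cells in cluster 7, 228 and 348 against 361 and 393 in cluster 8, 290 and 846 against 392 and 414 in cluster 9, and 270 and 672 against 66 and 89 in cluster 10.

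Rrm2b was the one member that passed as higher in Meioc-null cells in all 4 of these clusters. With the litter as a replicate block in the fit, Sesn2 passed in all 4 as well. The values of Rrm2b follow. In cluster 7 it had 52.6 and 55.4 CPM in wild type against 119.6 and 128 CPM in Meioc-null libraries (log2 1.15 ± 0.12 SE, edgeR adjusted p = 7.87e-05). In cluster 8 the wild-type levels of 46.9 and 68.7 CPM stood against 213 and 233 CPM (1.79 ± 0.18, adjusted p = 7.13e-05), the highest level of Rrm2b in any cluster or type. The genotypes lay far apart, by more than the spread between the libraries of either. In cluster 9, 38.2 and 41.4 CPM in wild-type cells compared with 180.3 and 178 CPM in Meioc-null cells (2.14 ± 0.13, adjusted p = 1.19e-13). In cluster 10, where both genotypes had less, 8.17 and 10.2 CPM compared with 65.4 and 49.8 CPM (2.51 ± 0.23, adjusted p = 1.29e-12). With Meioc-null cells placed without the genes that passed in any cluster, that last difference was 3.15.

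The other ribonucleotide reductase subunits did not pass as higher in Meioc-null clusters 7 and 8. Rrm1, the large subunit shared by both forms of the enzyme, had 151 and 134 CPM in wild type against 148 and 129 CPM in Meioc-null cluster 7, and was lower in Meioc-null cluster 8, at 126 and 120 against 101 and 96.4 CPM (log2 -0.46 ± 0.11, edgeR adjusted p = 0.0048). Rrm2, the S-phase small subunit, had 200.0 and 148 CPM in wild type against 191 and 165 CPM in Meioc-null cluster 7, with overlap (adjusted p = 0.959), and 160 and 128 against 204 and 172 CPM in cluster 8 (adjusted p = 0.0999). The cluster 8 libraries did not overlap, and the Meioc-null level of Rrm2 was 1.27 times the wild-type level within batch 1 and 1.35 times within batch 2. In the later clusters Rrm2 was higher in Meioc-null cells. Its libraries had 39.1 and 36.9 against 122 and 94.0 CPM in cluster 9 (1.49 ± 0.13, adjusted p = 3.55e-10) and 9.22 and 3.60 against 37.6 and 16.2 CPM in cluster 10 (2.06 ± 0.45, adjusted p = 0.00188). Rrm1 passed in cluster 10, at 28.1 and 21.8 against 74.3 and 55.6 CPM (1.31 ± 0.18, adjusted p = 8.00e-08), and not in cluster 9 (adjusted p = 0.195). Over the list of ribonucleotide reductase and deoxynucleotide supply genes, Rrm2b left out, 1 was higher and 1 lower of 9 in Meioc-null cluster 7, 1 and 2 of 9 in cluster 8, 3 and 1 of 9 in cluster 9 and 5 and 1 of 7 in cluster 10. In cluster 9 they included the thymidine kinase Tk1 (1.96 ± 0.40) and the mitochondrial kinase Dguok (-0.97 ± 0.13). Samhd1, which degrades deoxynucleotides, was higher in Meioc-null cluster 7 at 42.1 and 38.7 against 75.5 and 69.9 CPM (0.80 ± 0.11, adjusted p = 0.000563).

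**Figure D2:**
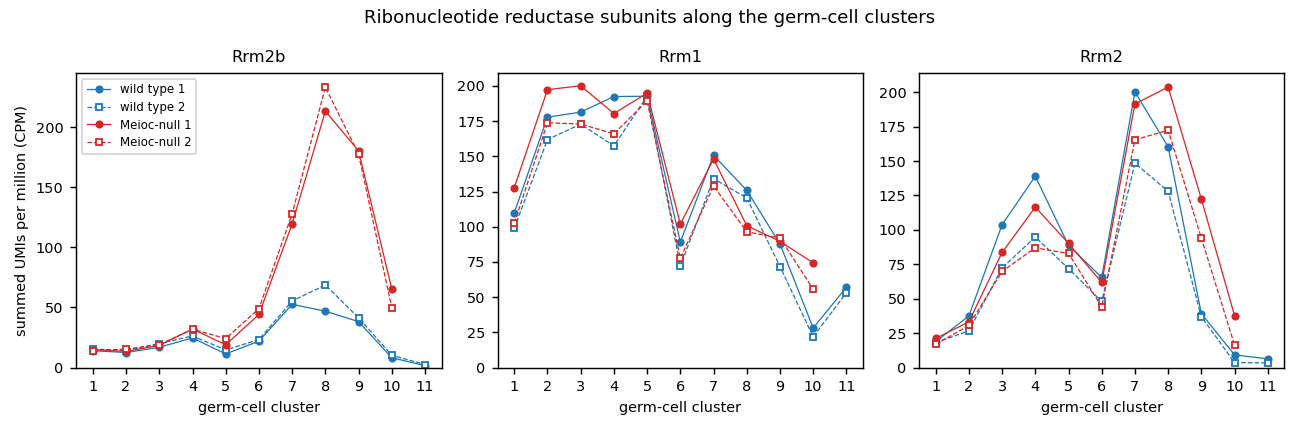
Level of the ribonucleotide reductase genes Rrm2b, Rrm1 and Rrm2 (vertical axis, CPM) in germ-cell clusters 1 to 11 (horizontal axis), one point per library, with wild type in blue and Meioc-null in red. Meioc-null Rrm2b reaches 213 and 233 CPM in cluster 8, where Rrm1 is at 101 and 96.4 CPM in the same libraries and 126 and 120 CPM in wild type.

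Ccng1 and Cdkn1a were higher in Meioc-null cells in clusters 9 and 10. Ccng1 had 10.5 and 8.18 CPM in wild type against 45.6 and 27.6 CPM in Meioc-null cluster 9 (log2 1.98 ± 0.21, edgeR adjusted p = 2.61e-08). In cluster 10 it had 6.70 and 6.80 against 94.9 and 92.2 CPM, 13.9 times as much on average (3.70 ± 0.20, adjusted p = 9.71e-20). This was the widest gap of any member in any tested cluster. Cdkn1a had 2.46 and 3.04 against 14.9 and 12.7 CPM in cluster 9 (2.24 ± 0.31, adjusted p = 1.04e-06) and 7.33 and 4.18 against 34.9 and 45.2 CPM in cluster 10 (2.84 ± 0.28, adjusted p = 1.53e-11). The Meioc-null libraries lay above both wild-type libraries in each case. In clusters 7 and 8 neither gene passed. In cluster 8 the libraries did not overlap and the genes went opposite ways, with Ccng1 at 4.41 and 2.23 against 5.83 and 6.11 CPM (0.77 ± 0.45, adjusted p = 0.201) and Cdkn1a at 5.61 and 3.90 against 3.81 and 2.88 CPM (-0.62 ± 0.46, adjusted p = 0.31), from 8 to 34 UMIs a library. Ccng1 had 12.0 and 12.8 against 10.9 and 13.2 CPM in cluster 7, and Cdkn1a 11.1 and 8.43 against 8.98 and 8.56 CPM, with overlap in both. When Meioc-null cells were placed without the genes that passed in any cluster, the difference of Ccng1 in cluster 9 was 1.25 (adjusted p = 3.65e-05).

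Sesn2 and Ddit4 were both higher in Meioc-null spermatocytes. Sesn2 had 28.8 and 24.5 CPM in wild type against 53.9 and 42.4 CPM in Meioc-null cluster 8 (log2 0.72 ± 0.16, edgeR adjusted p = 0.0034), 8.01 and 6.66 against 29.8 and 14.4 CPM in cluster 9 (1.57 ± 0.28, adjusted p = 0.000111) and 4.61 and 4.47 against 13.4 and 11.0 CPM in cluster 10 (1.33 ± 0.39, adjusted p = 0.00342). In cluster 7 it had 19.2 and 15.7 against 25.4 and 21.3 CPM without overlap, and the adjusted p was 0.113, or 0.0154 with the litter as a replicate block. Ddit4 had 4.00 and 2.80 against 14.0 and 9.14 CPM in cluster 9 (1.80 ± 0.33, adjusted p = 5.94e-05) and 7.33 and 4.47 against 32.2 and 20.9 CPM in cluster 10 (2.13 ± 0.32, adjusted p = 2.95e-07). Its cluster 7 values of 5.19 and 3.80 against 9.40 and 6.52 CPM gave an adjusted p of 0.0588, or 0.00145 with the replicate block. In cluster 8 Ddit4 had 2.80 and 1.95 against 4.04 and 3.42 CPM, from 7 to 19 UMIs a library, and did not pass (adjusted p = 0.448). Both genes moved with the batch as well, which cannot be told apart from the litter. Batch 1 exceeded batch 2 in both genotypes in 12 of 13 cell types for each gene, with a median ratio of 1.64 in wild-type and 1.53 in Meioc-null libraries for Ddit4 and of 1.25 and 1.37 for Sesn2. Within batch 1 the Meioc-null level of Ddit4 was 3.49 times the wild-type level in cluster 9 and 4.40 times in cluster 10, and within batch 2 it was 3.26 and 4.67 times. For Sesn2 the same ratios in cluster 9 were 3.72 in batch 1 and 2.16 in batch 2, and in cluster 10 they were 2.91 and 2.46.

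The apoptosis genes Bbc3 and Pmaip1 differed in opposite directions in cluster 9. Bbc3 had 1 and 6 UMIs in the wild-type and 28 and 15 UMIs in the Meioc-null libraries there, or 0.308 and 0.701 against 6.32 and 2.45 CPM (log2 2.78 ± 0.63, edgeR adjusted p = 0.000625). It was tested only because of the Meioc-null UMIs, since at the wild-type level all 4 libraries would have held 13.3 UMIs. From 7 against 43 UMIs in all, the ratio was 6.87 with a 95% counting interval of 3.06 to 18.1, which covers counting error only. The size of this difference was uncertain, at 20.5 times in batch 1 and 3.49 times in batch 2, and the log2 estimate ran from 2.06 without Meioc-null replicate 1 to 3.69 without wild type replicate 2. In cluster 7, where it had the most UMIs of the 4 clusters, it had 17.0 and 12.9 against 19.2 and 18.9 CPM and did not pass. Bbc3 was under the filter of 40 UMIs in clusters 8 and 10, where the ratios were 1.82 (0.63 to 6.41) and 5.96 (2.04 to 17.8). Pmaip1 had 15.1 and 14.0 CPM in wild type against 8.58 and 6.85 CPM in Meioc-null cluster 9 (-0.93 ± 0.25, adjusted p = 0.00338), and with cells placed without the genes that passed in any cluster the difference was -1.73 (adjusted p = 1.65e-05). Its cluster 10 levels of 35.6 and 28.8 against 28.7 and 26.1 CPM did not pass (adjusted p = 0.247). In cluster 7 it overlapped at 3.50 and 1.90 against 2.15 and 1.65 CPM (adjusted p = 0.368), and it was not tested in cluster 8.

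Trp53 and Mdm2 themselves also differed in cluster 9. Trp53 had 13.6 and 14.4 CPM in wild type against 29.8 and 18.4 CPM in Meioc-null cells (log2 0.73 ± 0.21, edgeR adjusted p = 0.00484). That result leaned on Meioc-null replicate 1. Without that library the difference was 0.43 (adjusted p = 0.162), and DESeq2 on all 4 libraries gave an adjusted p of 0.065. In cluster 10 Trp53 had 15.1 and 16.0 against 30.4 and 19.7 CPM, with an adjusted p of 0.0604, of 0.0386 with the replicate block and of 0.0262 without Meioc-null replicate 2. In clusters 7 and 8 its libraries did not overlap, at 10.5 and 8.67 against 14.0 and 11.7 CPM and at 4.01 and 3.06 against 10.1 and 4.31 CPM, and it did not pass (adjusted p = 0.208 and 0.161). Mdm2 was lower in Meioc-null cells, with 167 and 162 against 127 and 112 CPM in cluster 9 (-0.47 ± 0.12, adjusted p = 0.00208) and 194 and 199 against 134 and 137 CPM in cluster 10 (-0.60 ± 0.13, adjusted p = 0.000117). In clusters 7 and 8 the genotypes overlapped for Mdm2, at 75.0 and 64.6 against 72.6 and 66.6 CPM and at 67.3 and 81.5 against 76.5 and 69.2 CPM. Mdm4, the relative of MDM2 that binds p53 and inhibits it, was likewise lower in Meioc-null cluster 9 at 111 and 88.1 against 82.6 and 75.1 CPM (-0.33 ± 0.12, adjusted p = 0.0309) and in cluster 10 at 109 and 97.0 against 97.6 and 66.7 CPM (-0.43 ± 0.15, adjusted p = 0.0139), where the libraries overlapped.

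**Figure D3:**
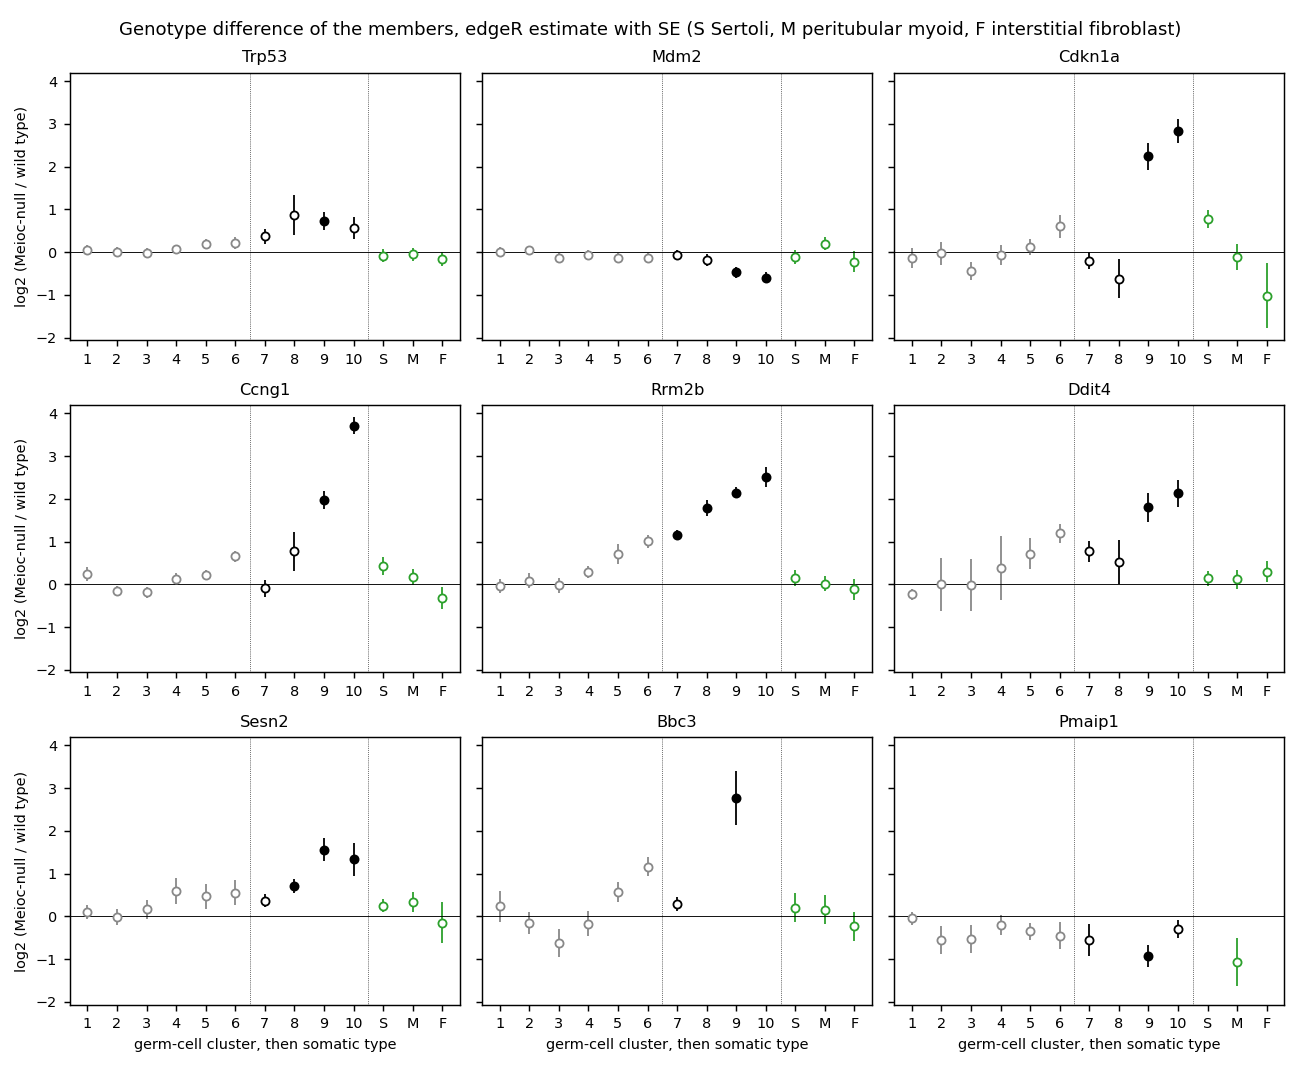
Difference between genotypes for each gene (vertical axis, log2 Meioc-null over wild type, edgeR estimate with SE as bars) in germ-cell clusters 1 to 10, Sertoli cells (S), peritubular myoid cells (M) and interstitial fibroblasts (F) on the horizontal axis. Filled points passed at an adjusted p under 0.05, grey points are clusters 1 to 6, given as a description, and the filled points of Mdm2 and Pmaip1 lie below 0 while those of the other 7 genes lie above it.

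Several stage markers moved with these differences, in both directions. The 7 summed markers of differentiating spermatogonia were at 247 and 226 CPM in wild type against 620 and 595 CPM in Meioc-null cluster 9, and at 226 and 214 against 1073 and 982 CPM in cluster 10. The sums were carried by a few of the 7, since 4 passed as higher in Meioc-null cells in cluster 9 and 2 in cluster 10. The X-linked homeobox genes Esx1 and Rhox13 were those 2, with Esx1 at 28.3 and 22.9 CPM in wild type against 667 and 589 CPM in Meioc-null cluster 10 and Rhox13 at 83.8 and 91.0 against 284 and 291 CPM. The receptor Kit had 4.19 and 2.72 against 4.48 and 2.90 CPM there, and Sohlh1 passed in neither cluster. None of the 7 markers was at 0 in a wild-type library of either cluster. The 5 summed preleptotene markers were higher too, at 2779 and 3034 against 4105 and 4357 CPM in cluster 9 and at 974 and 1043 against 2183 and 1965 CPM in cluster 10, with 4 of 5 passing in each. Summed pachytene markers were lower in Meioc-null cluster 9, at 601 and 492.5 CPM in wild type against 325 and 341 CPM, with 2 passing as lower and 1 as higher. In cluster 10 they were at 925 and 802 CPM in wild type against 216 and 219 CPM. Undifferentiated markers, sparse in these cells, were lower in Meioc-null cluster 10 too, at 24.1 and 18.6 CPM in wild type against 3.58 and 4.64 CPM. Of these, 1 passed as lower in each of clusters 9 and 10. Of the 8 early spermatocyte markers 2 were higher and 3 lower in Meioc-null cluster 9 and 3 higher and 4 lower in cluster 10, and of the 5 general germ-cell markers 1 was higher and 1 lower in cluster 9 and 4 were lower in cluster 10. The mitosis genes Plk1, Ccnb1, Ccna2, Cenpa, Ube2c, Mki67, Nusap1 and Knstrn, a list drawn up after the data were seen, summed to 433 and 424 CPM in wild type against 1298 and 1079.6 CPM in Meioc-null cluster 7 and to 606 and 639 against 2277 and 1910 CPM in cluster 8. They summed to 662 and 684 against 1287 and 1176 CPM in cluster 9 and to 480 and 453 against 1453 and 1384 CPM in cluster 10, and 8, 8, 7 and 8 of the 8 passed as higher in clusters 7 to 10. Immediate-early and dissociation genes summed to 263 and 182 against 476 and 228 CPM in cluster 9 and to 312 and 205 against 594 and 304 CPM in cluster 10, with batch 1 above batch 2 in each genotype. Markers moved in clusters 7 and 8 too. The differentiating sum was 808 and 764 against 827 and 814 CPM in cluster 7, with 2 of 7 passing as higher in Meioc-null cells, and 449 and 416 against 587 and 574 CPM in cluster 8, with 3 of 7. In cluster 8 2 of the 5 preleptotene markers were higher, among them Stra8 at 585 and 595 against 1695 and 1825 CPM, while 3 pachytene markers were lower and 1 higher, and 2 undifferentiated markers and 1 early spermatocyte marker were lower. In cluster 7 1 preleptotene, 1 undifferentiated, 2 early spermatocyte and 2 pachytene markers were lower and 1 pachytene marker was higher. The part of these markers in the differences of the 9 genes was not tested.

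**Figure D4:**
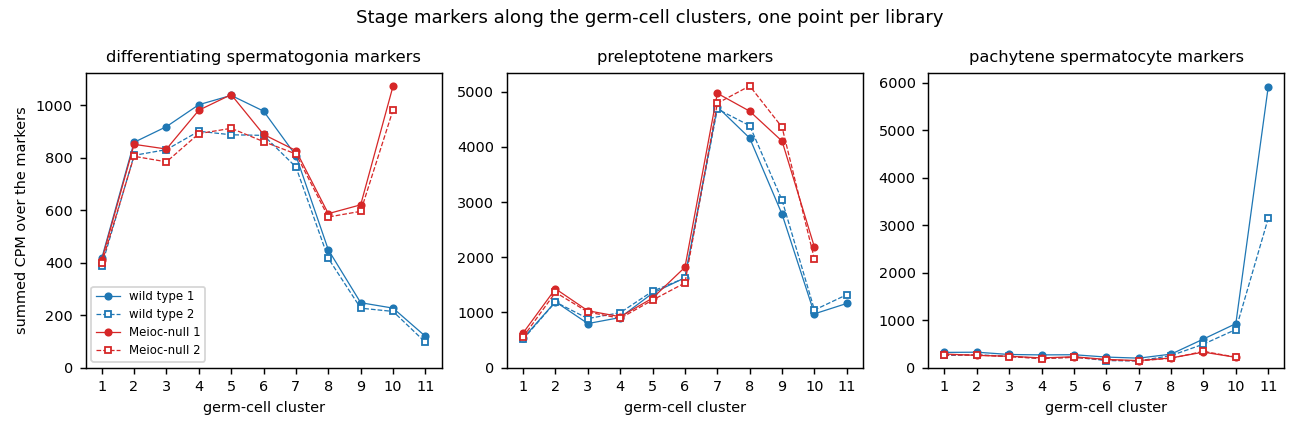
Summed level of the markers of differentiating spermatogonia, preleptotene cells and pachytene spermatocytes (vertical axes, CPM summed over the markers) in germ-cell clusters 1 to 11 (horizontal axis), one point per library, with wild type in blue and Meioc-null in red. In cluster 10 the differentiating markers stand at 1073 and 982 CPM in Meioc-null and 226 and 214 CPM in wild-type libraries.

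Other genes of the pathway were taken from lists, and the 9 genes are left out of each count. Of the p53 family and regulators, 1 of 8 was higher in Meioc-null cluster 7 and none lower, 3 of 8 were higher in cluster 8, 3 were higher and 1 lower of 9 in cluster 9, and 2 were higher and 4 lower of 9 in cluster 10. Cdkn2a, whose locus encodes the CDK inhibitor p16 and the MDM2 inhibitor ARF, had 21.9 and 18.1 CPM in wild type against 152 and 156 CPM in Meioc-null cluster 9 (log2 2.97 ± 0.14, edgeR adjusted p = 6.77e-16) and 9.43 and 5.15 against 124 and 143 CPM in cluster 10 (4.25 ± 0.20, adjusted p = 1.01e-19). Ppm1d, a phosphatase that ends p53 signalling, was higher in Meioc-null cluster 7 (0.70 ± 0.12, adjusted p = 0.0032) and cluster 8 (0.78 ± 0.19, adjusted p = 0.00502), and less so in cluster 9 (0.31 ± 0.13, adjusted p = 0.049). Atm, the kinase that answers to double-strand breaks, was higher in cluster 9 (0.83 ± 0.13) and cluster 10 (2.03 ± 0.22). Trp63, a p53 relative that guards oocytes, was lower in Meioc-null cluster 10 from 132 wild-type against 3 Meioc-null UMIs, a wild-type over Meioc-null ratio of 8.30 (counting interval 2.78 to 40.8), and reached the filter only through its wild-type libraries. Trp73 had too few UMIs to be tested in these clusters.

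The list of other p53 target genes had 4 higher and 3 lower of 26 in Meioc-null cluster 7, 6 and 2 of 24 in cluster 8, 11 and 6 of 26 in cluster 9 and 14 and 3 of 25 in cluster 10. In both directions together that was 7 of 26 beside 15.4% of all genes, 8 of 24 beside 36.1%, 17 of 26 beside 45.7% and 17 of 25 beside 54.6%. Its median differences were 0.01, 0.15, 0.28 and 0.56, beside 0.01, 0.03, 0.02 and -0.00 for all genes. Like the counts, these medians include genes that reached the filter only through 1 genotype, and the list was chosen with earlier results known. Plk2 was higher in Meioc-null cluster 10 at 12.4 and 13.1 against 157 and 108 CPM (3.26 ± 0.17, edgeR adjusted p = 7.95e-20). Tnfrsf10b, a death receptor, had 5 and 3 UMIs in wild type against 15 and 17 UMIs in Meioc-null cluster 10, or 1.05 and 0.292 against 13.4 and 9.85 CPM, a ratio of 21.2 (counting interval 9.57 to 53.3), and it reached the filter only through its Meioc-null libraries. Btg2, an anti-proliferative gene, and Apaf1, the apoptosome scaffold, were higher in cluster 7 (0.80 ± 0.15 and 0.60 ± 0.12) and cluster 10 (2.50 ± 0.30 and 2.46 ± 0.26), and Apaf1 also in cluster 8 at 21.2 and 25.9 against 59.5 and 49.1 CPM (1.04 ± 0.17, adjusted p = 0.000312). Phlda1 was lower in Meioc-null cluster 7 (-1.33 ± 0.34). In cluster 8 it had 38 wild-type against 14 Meioc-null UMIs, and Zmat3, an RNA-binding p53 target, had 46 against 12 UMIs in cluster 9, ratios of Meioc-null over wild type of 0.224 (0.112 to 0.423) and 0.292 (0.141 to 0.559), and both reached the filter only through wild-type UMIs. Bax, the pore-forming protein that BBC3 and PMAIP1 act on, passed only in cluster 10 of the 4, at 86.3 and 77.1 against 158 and 167 CPM (0.93 ± 0.13, adjusted p = 6.64e-08).

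In the BCL2 family list 2 were higher and 1 lower of 9 in Meioc-null cluster 7, 1 and 1 of 7 in cluster 8, 2 and 1 of 7 in cluster 9 and 3 and 2 of 7 in cluster 10. Bcl2l11, the BH3-only protein BIM, had 1.05 and 0.875 CPM in wild type against 25.1 and 13.9 CPM in Meioc-null cluster 10. These came from 14 against 52 UMIs, a ratio of 19.7 (counting interval 10.8 to 38.5), and Bcl2l11 reached the filter there only through its Meioc-null libraries. Bik, another BH3-only gene, had 1.92 and 1.19 against 7.14 and 7.11 CPM in cluster 7 (2.14 ± 0.30, edgeR adjusted p = 0.000834). Bcl2l1, the anti-apoptotic BCL-XL, was lower in Meioc-null cells in all 4 clusters, from -0.38 ± 0.11 in cluster 7 to -2.05 ± 0.24 in cluster 10. Mcl1, the partner of NOXA, passed in none of the 4, with differences from -0.03 to 0.20, and Bcl2 had too few UMIs to be tested there. Of the CDK inhibitors, none was higher and 1 lower of 6 in cluster 7, 1 and 2 of 5 in cluster 8, 3 and 0 of 5 in cluster 9 and 3 and 1 of 5 in cluster 10. Ccng2, the relative of Ccng1, passed in none of the 4 clusters, with differences from -0.49 to 0.06, and Cdkn1b had enough UMIs only in cluster 7 and did not pass there (adjusted p = 0.846).

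Among the other mTOR brakes none was higher in Meioc-null cells, and 0 of 7, 2 of 5, 1 of 5 and 1 of 6 were lower in clusters 7 to 10. Sesn3, another sestrin, was lower in Meioc-null cells where Sesn2 was higher, with 126 and 124 against 56.4 and 58.5 CPM in cluster 10 (log2 -1.18 ± 0.15, edgeR adjusted p = 7.52e-09), and it was also lower in cluster 8 (-0.61 ± 0.12) and cluster 9 (-0.65 ± 0.12). Sesn1 passed in none of the 4 clusters, with differences from 0.24 to 0.37. Sesn2 and Ddit4 also answer to the integrated stress response, through ATF4. Of the listed genes of that response, 1 of 12 was lower in Meioc-null cluster 7, and 2 were higher and 1 lower of 7 in cluster 8. In clusters 9 and 10, 5 of 8 and 3 of 8 were higher. Asns, asparagine synthetase, had 41.2 and 30.1 against 24.8 and 24.0 CPM in cluster 7 (-0.59 ± 0.14, adjusted p = 0.0158) and 1.89 and 3.69 against 26.9 and 19.1 CPM in cluster 10 (2.81 ± 0.37, adjusted p = 2.48e-08). Of the listed genes that answer to glucocorticoids or hypoxia, as Ddit4 does, 2 of 10 were higher and 1 lower in cluster 7, and 2 and 1 of 7 in cluster 8. In clusters 9 and 10, 7 of 9 and 5 of 8 were higher, where 24.2% and 27.6% of all genes were. Tsc22d3, the glucocorticoid-induced gene GILZ, was lower in Meioc-null cluster 7 (-0.43 ± 0.10) and cluster 8 (-0.65 ± 0.11) and higher in cluster 10, at 35.2 and 32.8 against 264 and 224 CPM (2.77 ± 0.13, adjusted p = 3.22e-21). Sgk1, a glucocorticoid-induced kinase, had 10 wild-type against 37 Meioc-null UMIs in cluster 10, a ratio of 19.6 (counting interval 9.56 to 44.2), and reached the filter only through the latter. Of the immediate-early and dissociation genes none of 15 passed in cluster 7, 2 were higher and 2 lower of 13 in cluster 8, 5 and 1 of 15 in cluster 9 and 3 and 1 of 11 in cluster 10.

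Whether the genotype effect of a member in a later cluster differed from its effect in undifferentiated cluster 1 was tested in 1 model with the animal as a block. The difference passed in 19 of 33 tests of members, against 37.5% of all gene and cluster pairs. In cluster 7 these were Rrm2b and Ddit4 (19% of all genes), in cluster 8 Rrm2b and Sesn2 (35%), in cluster 9 all 9 genes, Bbc3 again with the limit given above (44.6%), and in cluster 10 Rrm2b, Ccng1, Cdkn1a, Ddit4, Sesn2 and Mdm2 (54.5%). Rrm2b and Ddit4 were put on the list with their genotype difference in late spermatogonia of these pups known. Their results here are therefore no independent support. Ddit4 did not pass in cluster 7 itself, and its effect in cluster 1 was -0.23 ± 0.13.

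Clusters 1 to 6 were fitted in the same way, but their values are given as a description, because the genotype difference in late spermatogonia put Rrm2b and Ddit4 on the list. In clusters 1 to 3 the genotypes overlapped for Rrm2b, at 14.0 and 15.5 against 14.9 and 14.1 CPM in cluster 1. In cluster 4 its wild-type libraries had 24.7 and 26.3 CPM and its Meioc-null libraries 32.1 and 31.9 CPM, in cluster 5 11.3 and 14.7 against 18.9 and 24.1 CPM, and in cluster 6 22.0 and 23.3 against 44.2 and 49.0 CPM. The log2 difference of Rrm2b in cluster 6, which lay between differentiating and preleptotene markers, was 1.01 ± 0.16. Ddit4 overlapped in clusters 2 to 5. In cluster 5 that overlap went with the litters, since its libraries had 17.5 and 9.83 against 32.5 and 15.7 CPM, or 1.86 times the wild-type level within batch 1 and 1.59 times within batch 2. It had 14.7 and 7.90 against 32.6 and 22.0 CPM in cluster 6 (1.19 ± 0.22). In cluster 1 it had 55.4 and 41.9 against 41.7 and 41.3 CPM, higher in wild type by a narrow margin. Bbc3 and Ccng1 stood apart in cluster 6 as well, at 11.9 and 9.35 against 31.7 and 17.5 CPM (1.16 ± 0.22) and at 40.5 and 40.7 against 64.6 and 66.5 CPM (0.65 ± 0.13). Cdkn1a had 6.19 and 5.61 against 9.82 and 8.67 CPM there, and Trp53 38.7 and 35.3 against 50.3 and 38.7 CPM. Mdm2 and Pmaip1 overlapped, and Sesn2 overlapped at 6.06 and 4.36 against 9.93 and 5.94 CPM, though within the litters it was 1.64 and 1.36 times the wild-type level. In cluster 6 the genotypes did not overlap for 6 of 9 members, beside 33.6% of all genes. Past the threshold used for clusters 7 to 10 lay 4 of 54 member values in clusters 1 to 6, all in cluster 6, beside 0.211% of all gene and cluster pairs, and nothing is read from either count, since Rrm2b and Ddit4 are 2 of the 4. Over the other settings these 4 ranged from 0.85 to 1.17 for Rrm2b, 0.91 to 1.68 for Ddit4, 0.76 to 1.44 for Bbc3 and 0.55 to 0.76 for Ccng1.

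In the somatic types no member passed. In simulated data the test recovered 75% of changes of log2 1 in Sertoli cells and 77% in peritubular myoid cells, but only 38% in interstitial fibroblasts. A change of that size could therefore be missed, most of all in fibroblasts. The 3 types with at least 50 cells per library, Sertoli cells, peritubular myoid cells and interstitial fibroblasts, gave 0 of 25 tests of members, against 0.26% of all gene and type pairs, and 2 of the 25 had an unadjusted edgeR p under 0.05, both in Sertoli cells. Cdkn1a was nearest to the threshold, with 18.5 and 15.3 CPM in wild type against 32.6 and 27.7 CPM in Meioc-null Sertoli cells (log2 0.78 ± 0.20, adjusted p = 0.0538). The genotypes did not overlap, and the adjusted p was 0.00987 with the replicate block and 0.956 by DESeq2. Summed preleptotene markers were at 122 and 149 CPM in wild type against 265 and 201 CPM in Meioc-null Sertoli cells, with 1 marker passing as higher, while summed pachytene markers were at 247 and 184 against 150 and 157 CPM, with 2 passing as lower. Of the early spermatocyte markers 2 passed as lower, and immediate-early and dissociation genes summed to 2246 and 2167 against 1733 and 1661 CPM, with 2 passing as lower. The part of these genes in the Cdkn1a difference was not tested. Ccng1, the other of the 2, had 17.3 and 16.1 against 23.9 and 22.5 CPM in Sertoli cells, a log2 difference of 0.42.

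The stress genes of Sertoli cells overlapped between genotypes, with Sesn2 at 119 and 102 against 154 and 119 CPM and Ddit4 at 101 and 71.4 against 117 and 80.8 CPM. The overlap went with the litters, since within batches 1 and 2 the Meioc-null level was 1.29 and 1.17 times the wild-type level for Sesn2 and 1.15 and 1.13 times for Ddit4, and neither passed. Trp53 had 107 and 101 against 102 and 102 CPM, and Mdm2 36.7 and 39.6 against 36.7 and 36.1 CPM. In peritubular myoid cells Trp53 had 98.0 and 85.2 against 93.4 and 89.3 CPM and Rrm2b 20.8 and 19.8 against 22.1 and 20.2 CPM, with overlap for both. Mdm2, Ccng1 and Sesn2 did not overlap there, at 38.8 and 39.7 against 51.9 and 41.6 CPM, 16.1 and 16.1 against 19.0 and 18.4 CPM, and 8.07 and 6.46 against 9.43 and 9.36 CPM, and none of them passed. In interstitial fibroblasts the same held for Trp53 at 87.3 and 95.2 against 84.4 and 83.5 CPM, Ccng1 at 21.5 and 20.8 against 17.0 and 17.6 CPM and Ddit4 at 25.8 and 19.6 against 27.2 and 29.3 CPM. The other members overlapped in both types. Of all genes, 32.1% did not overlap in Sertoli cells, 23.3% in peritubular myoid cells and 26.7% in interstitial fibroblasts. In interstitial fibroblasts Cdkn1a had 86.8 and 28.6 against 37.4 and 21.5 CPM (-1.01, adjusted p = 1.00). Wild type replicate 1 set that value, since without it the difference was -0.06, while the replicate block gave -0.89 with an adjusted p of 0.0136. Leydig cells, with 32 and 50 wild-type and 21 and 72 Meioc-null cells, were not tested. There Mdm2 had 41.1 and 40.1 against 23.3 and 23.6 CPM, from 25 and 40 against 9 and 40 UMIs.

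**Figure D5:**
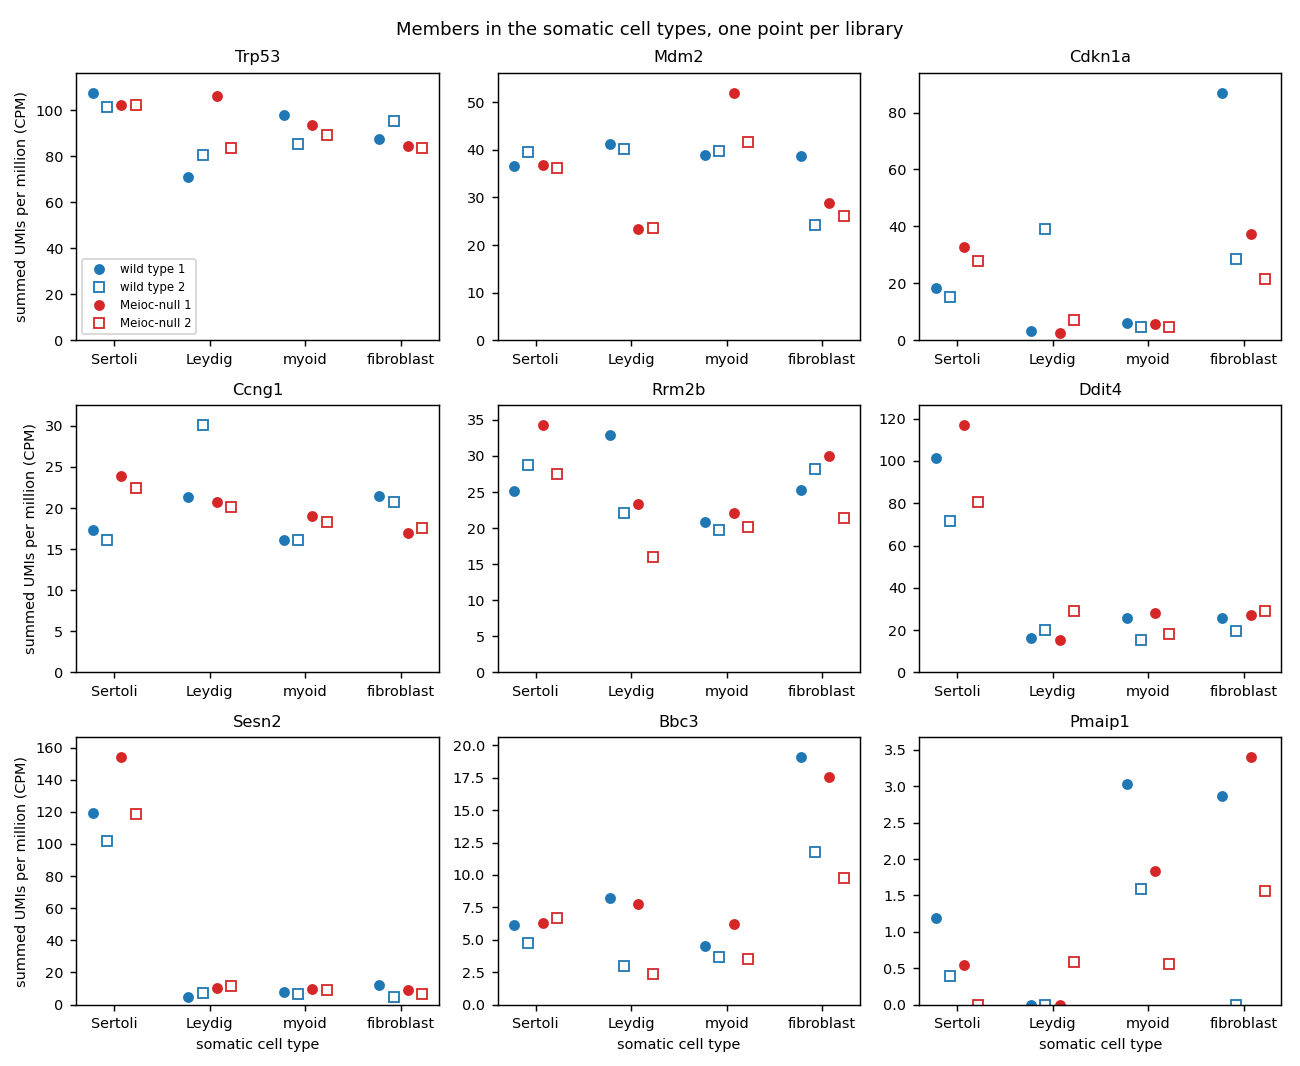
Level of each of the 9 genes (vertical axis, CPM) in Sertoli cells, Leydig cells, peritubular myoid cells and interstitial fibroblasts (horizontal axis), one point per library, with wild type in blue and Meioc-null in red, filled for batch 1 and open for batch 2. Sesn2 and Ddit4 are high in Sertoli cells of both genotypes, and the fibroblast libraries of Cdkn1a spread from 21.5 to 86.8 CPM.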

How the data were processed

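Count tables of UMIs per gene and barcode were deposited for 4 libraries, made by the authors with Cell Ranger 4.0.0 on mm10 (per the labels and the study's methods). Barcodes with over 1000 detected genes and under 10% mitochondrial UMIs were kept, and the highest doublet scores were removed at 0.8% per 1000 barcodes, 690 to 996 per library (scanpy 1.11.5). Wild-type cells were clustered by Leiden (2000 variable genes, 30 components, all listed genes left out) and Meioc-null cells placed by nearest neighbours. Raw counts (total UMIs 158291903 to 190455307 per library) were summed per library and cluster and tested with edgeR 4.0.16 (R 4.3.3; TMM, robust quasi-likelihood test, Benjamini-Hochberg within the cluster, at least 40 UMIs over the 4 libraries and 50 cells in each), a procedure tested on simulated data, in which more than the intended 5% of calls were false in each of clusters 7 to 10. The members and lists were chosen with earlier results of these data known. The rule for named genes took all 9 genes, fixed partner genes and, from each list and cluster, up to 4 genes called with the same direction in both batches and the largest differences, of which the text prints a part. The labels make same-numbered pups littermates of 1 batch, so numbers pair the libraries. Deviations of same-numbered libraries correlated at -0.07 to 0.42 over genes. The block was an alternative, as were DESeq2 1.42.0, other filters, placing, a 5% mitochondrial limit and each library left out. Gene coordinates are from GENCODE vM21. Counting intervals are 95% and cover counting error only.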

Additional observations from a re-analysis of the deposited data

Results flagged for a closer look

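The genotype effect of a member (log2 Meioc-null over wild type) differed between an advanced germ-cell cluster and undifferentiated cluster 1 in 19 tests, by edgeR's genotype-by-cluster term with the animal as a block, at adjusted p from 1.59e-27 to 0.0318. Of all gene and cluster pairs 37.5% passed too, with 19%, 35%, 44.6% and 54.5% in clusters 7, 8, 9 and 10. Rrm2b and Ddit4 were listed with their difference in late spermatogonia known. The differences of the effects in cluster 7 were 1.18 for Rrm2b and 1.00 for Ddit4, and in cluster 8 they were 1.83 for Rrm2b and 0.59 for Sesn2. In cluster 9 all 9 genes were among them, with 2.49 for Bbc3 (tested there only because of its Meioc-null UMIs), 2.29 for Cdkn1a, 2.17 for Rrm2b, 1.94 for Ddit4, 1.67 for Ccng1, 1.42 for Sesn2, 0.64 for Trp53, -0.52 for Mdm2 and -0.99 for Pmaip1. Cluster 10 gave 3.41 for Ccng1, 2.91 for Cdkn1a, 2.56 for Rrm2b, 2.31 for Ddit4, 1.24 for Sesn2 and -0.62 for Mdm2. Trp53 in cluster 10 missed the threshold (0.48, adjusted p = 0.0802).

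Barcodes removed for a mitochondrial share of 10% or more, 2322 and 1732 in the wild-type and 2876 and 1771 in the Meioc-null libraries, also carried the members. Both Meioc-null libraries lay above both wild-type libraries for Cdkn1a, Ccng1, Rrm2b and Sesn2. The mean levels were 20.1 against 9.49 CPM for Cdkn1a, 28.0 against 22.2 CPM for Ccng1, 40.1 against 26.2 CPM for Rrm2b and 95.1 against 77.3 CPM for Sesn2. The share of all genes without overlap was not taken in these barcodes, so nothing is read from the number of members. These barcodes mix all cell types, and the difference was not tested.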

How the results depend on the processing

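Of the 18 member results that passed in clusters 7 to 10, 8 passed under every alternative that gave a value, 9 were lost only under a Bonferroni correction, and Trp53 in cluster 9 was lost also by DESeq2 and without Meioc-null replicate 1. None changed direction. The 5% mitochondrial limit left too few cells to test clusters 7 to 10. Counts of 18 members and 15974 genes became 8 and 2706 under Bonferroni, and 10543 genes by DESeq2. With the replicate block, members passing became 21 and genes passing 20875 in clusters 7 to 10. Members passing became 2 in somatic types. Genes passing there went from 73 to 151 in Sertoli cells, 11 to 62 in myoid cells and 6 to 38 in fibroblasts. Members past the same threshold in clusters 1 to 6, from which nothing is read, became 7. The block also changed the calls of Sesn2 and Ddit4 in cluster 7 and of Trp53 in cluster 10. The 3 values it added in clusters 1 to 6 were those of Ddit4, Rrm2b and Bbc3 in cluster 5. The 0 in somatic types became 1 with DESeq2 size factors and 1 with no filter. The 4 in clusters 1 to 6 became 2 by DESeq2, 0 at the 5% limit (where cluster 6, which held all 4, had too few cells to test), 0 under Bonferroni and 1 to 4 with a library left out (1 when either wild-type library was left out).

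Wild-type levels moved by more than their SD as follows. At the 5% limit Rrm2b in cluster 8 went from 57.8 to 19.1 CPM (5 and 3 cells left), Sesn2 in Sertoli cells from 111 to 70.6 CPM, Pmaip1 in cluster 10 from 32.2 to 43.2 CPM and Ccng1 in cluster 4 from 136 to 149.8 CPM. Without doublet removal, Trp53 in Sertoli cells was at 98.3, Mdm2 in cluster 10 at 192 and Ccng1 in cluster 4 at 133 CPM. The other placing gave Ccng1 131 CPM, and means over cells gave 93.1 CPM for Trp53 and 82.8 CPM for Sesn2 in Sertoli cells.

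Signs turned only for differences that had not passed. At the 5% limit these were Cdkn1a (0.025) and Rrm2b (-0.015) in myoid cells, Rrm2b in Sertoli cells (-0.45) and Sesn2 in fibroblasts (0.049, and 0.30 without doublet removal), and with the other placing Ccng1 in cluster 7 (0.023). With 1 library left out, ranges crossed 0 for Ccng1 in cluster 7 (-0.31 to 0.11), Mdm2 in cluster 8 (-0.35 to 0.031) and fibroblasts (-0.50 to 0.11), Trp53 (-0.11 to 0.024), Cdkn1a (-0.26 to 0.056), Ddit4 (-0.19 to 0.49) and Bbc3 (-0.18 to 0.48) in myoid cells, Ddit4 in Sertoli cells (-0.11 to 0.40), and Rrm2b (-0.31 to 0.083), Sesn2 (-0.68 to 0.65) and Bbc3 (-0.63 to 0.13) in fibroblasts. The cause of these shifts was not tested.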

Other observations

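The batches, which cannot be told apart from the litters, differed in other members besides Ddit4 and Sesn2. Batch 1 was above batch 2 in both genotypes in 13 of 13 cell types for Pmaip1 (median ratio, where neither library was at 0, 1.45 in wild-type and 1.25 in Meioc-null libraries), 9 for Trp53, 8 for Bbc3, 7 each for Mdm2 and Cdkn1a, 3 for Ccng1 and 1 for Rrm2b.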
